A study of Drosophila melanogaster with 12 samples.

Results

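Knock down (kd) of the RNA-binding protein Tis11 was profiled in SL2 cells that received no lipopolysaccharide (LPS). The comparison takes 6 of the 12 arrays of the series, chosen by their labels: 3 from cells given Tis11 dsRNA (Tis11 kd) and 3 from cells given GFP dsRNA (GFP kd). It covers 18769 of the 18952 probe sets, leaving out 183 controls of the array. SL2 is a Drosophila melanogaster line of hemocyte origin with macrophage-like properties. Both groups had 12.5 µg/ml of dsRNA for 4 days, so the GFP kd cells share the exposure to double-stranded RNA and differ in its target, a jellyfish gene the fly does not have. The other 6 arrays come from cells with the same dsRNAs and 10 µg/ml LPS for 4 h. Total RNA of 3 biological repeats per group was hybridized to Affymetrix Drosophila Genome 2.0 arrays.

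Tis11 is the fly member of the tristetraprolin family of zinc finger proteins. These proteins bind AU-rich elements in the 3′ ends of mRNAs and bring in the CCR4-NOT deadenylase, so that the poly(A) tail is shortened and the mRNA is broken down. In mammalian macrophages tristetraprolin limits cytokine mRNAs, and in fly cells Tis11 acts on the mRNA of the antimicrobial peptide CecA1. An mRNA that Tis11 destabilizes is therefore looked for among those at a higher level after its kd.

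Signals are log2 values, in which a step of 1 is a doubling, and they run from 2.25 to 14 over the 6 arrays. Of the probe sets, 13647 are annotated to 1 gene (11982 genes in all), 402 to several and 4720 to none, and 7188 (38.3%) have a mean of at least 6. No probe set is annotated to Tis11, so the depletion itself was not checked on these arrays. The study states that it established the efficiency of the kd separately, by Northern blot and qPCR. All 9 plasmatocyte markers, genes of the phagocytic blood cells, had a mean of at least 6. So did 4 of 6 lamellocyte, 2 of 5 crystal cell, 2 of 5 germline, 1 of 4 muscle, 0 of 5 neuron and 0 of 5 fat body markers measured. In a bulk culture, fewer cells of a kind and less RNA per cell cannot be told apart.

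The arrays of one group were less alike than certain arrays of different groups. Over all probe sets, Pearson's r was 0.9803 to 0.9927 within Tis11 kd and 0.9766 to 0.9913 within GFP kd. Across groups it reached 0.9960 for Tis11 kd replicate 1 with GFP kd replicate 3, 0.9971 for Tis11 kd replicate 2 with GFP kd replicate 1, and 0.9977 for Tis11 kd replicate 3 with GFP kd replicate 2. After the group means were removed, the leading axis of variation held 74.9% of what was left. Tis11 kd replicate 1 and GFP kd replicate 3 lay at one end of it (0.515 and 0.547), Tis11 kd replicate 2 and GFP kd replicate 1 at the other (−0.441 and −0.480), and the remaining arrays near 0. These arrays stand at the ends of the range of many genes below, and what sets them apart is not given in the labels.

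**Figure D1:**
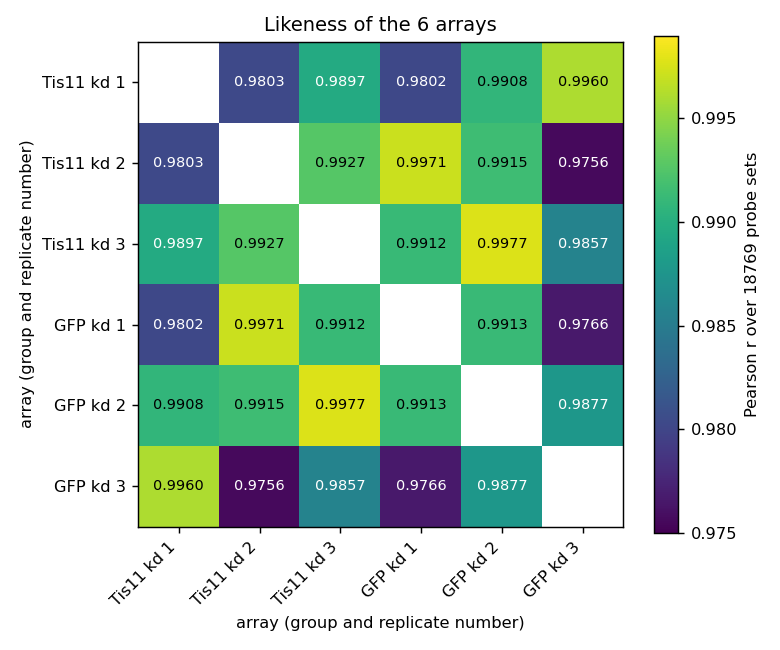
Pearson's r between each pair of the 6 arrays over 18769 probe sets (both axes list the arrays by group and replicate number, Tis11 kd first; the diagonal is blank). The 3 brightest cells, 0.9960, 0.9971 and 0.9977, each join a Tis11 kd array to a GFP kd array.

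Each difference below is a log2 signal in Tis11 kd cells less that in GFP kd cells, and its standard error (SE) comes from limma. No gene passed the test: 0 of 18769 probe sets were higher (0% of those tested) and 0 lower (0%) by limma with Benjamini-Hochberg adjustment and a threshold of 0.05, and the smallest adjusted p was 0.9998. At an unadjusted limma p under 0.05 there were 164 higher (0.874%) and 42 lower (0.224%), and the methods' t-test gave 241 and 157, with 0 in either direction after adjustment. Most signals were close in both groups. The median difference was −0.001, 49.4% of probe sets were above 0, and 96.5% of probe sets lay within 0.25 of 0. The difference was over 0.5, which is a fold of 1.41, for 56 probe sets (0.298%) and under −0.5 for 20 (0.107%). The study chose some of the mRNAs over 0.5 for qPCR and reports an increase of at least 1.41-fold for most of them. All 3 Tis11 kd values lay above all 3 GFP kd values for 485 probe sets (2.58%) and below them for 354 (1.89%). An exact permutation test of 3 arrays against 3 cannot go under p = 0.1. What the p-values measure is the spread of the 3 biological repeats of a group, and that spread includes the leading axis. No test matched arrays by their likeness, so SEs, overlap counts and ranges with 1 array left out treat the arrays as unmatched. All genes below have an adjusted limma p of 1.00 unless another is given.

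**Figure D2:**
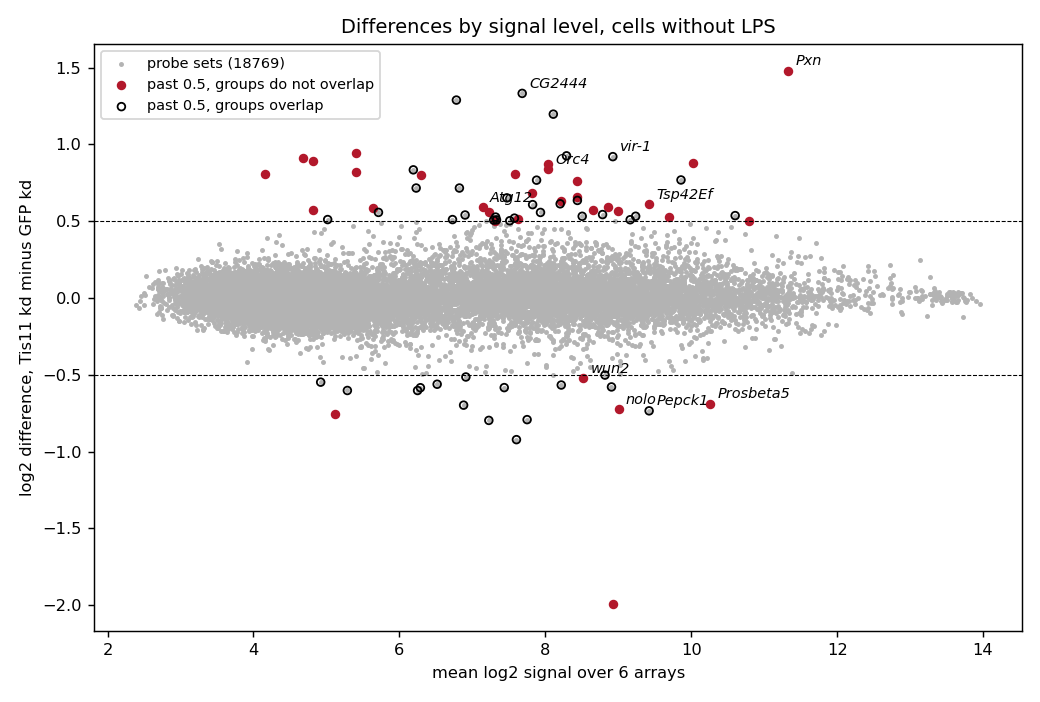
Log2 difference, Tis11 kd minus GFP kd, against the mean log2 signal over the 6 arrays, 1 point per probe set. Dashed lines mark differences of 0.5 and −0.5; filled points past them are probe sets whose groups do not overlap, open points those whose groups overlap, and 56 points lie above the upper line against 20 below the lower one.

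Among annotated genes, the clearest separations between the groups were at higher signals after Tis11 kd, in a set of genes with little spread between repeats. Sclp (CG2471) had log2 signals of 8.44, 8.54 and 8.44 in Tis11 kd replicates 1, 2 and 3, against 7.79, 7.49 and 7.54 in GFP kd replicates 1, 2 and 3. All Tis11 kd arrays lie above all GFP kd arrays, and the difference was 0.87 (SE 0.11). Atg12, the ubiquitin-like protein joined to Atg5 when autophagosomes form, had 7.50, 7.39 and 7.43 in Tis11 kd arrays, against 6.79, 6.79 and 6.96 in GFP kd arrays. The groups do not overlap, and the difference was 0.59 (SE 0.09). Tsp42Ef, a tetraspanin membrane protein, had 9.61, 9.85 and 9.73 in Tis11 kd arrays, against 9.05, 9.19 and 9.12 in GFP kd arrays. Its groups are likewise apart, by 0.61 (SE 0.10). CG17712 had 8.19, 8.02 and 8.14 in Tis11 kd arrays, against 7.63, 7.64 and 7.68 in GFP kd arrays, a difference of 0.46 (SE 0.09) with no overlap.

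Orc4 and Mvd were separated too, with somewhat more spread. Orc4, which encodes part of the origin recognition complex, had 8.31, 8.56 and 8.49 in Tis11 kd arrays, against 7.90, 7.65 and 7.29 in GFP kd arrays. The groups do not overlap, and the difference was 0.84 (SE 0.17). Mvd, the mevalonate diphosphate decarboxylase of the mevalonate pathway, had 8.88, 8.57 and 8.98 in Tis11 kd arrays, against 7.88, 7.98 and 8.28 in GFP kd arrays. It too was separated, by 0.76 (SE 0.15). The other 6 genes of the mevalonate list measured lay between −0.21 for Fpps, the farnesyl diphosphate synthase, and 0.30 for bgm, which encodes an acyl-CoA synthetase and not an enzyme of that pathway.

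Pxn had the highest difference of all genes. It encodes peroxidasin, a secreted peroxidase of the basement membrane made by hemocytes. Its signals were 11.37, 12.58 and 12.25 in Tis11 kd arrays, against 11.05, 11.02 and 9.69 in GFP kd arrays, a difference of 1.48 (SE 0.45), or 2.79-fold. The groups are apart, but Tis11 kd replicate 1 lies closer to GFP kd replicate 1 than to the other Tis11 kd arrays, and GFP kd replicate 3 lies far below its group. Leaving out 1 array at a time gave 1.03 to 1.83. A dimmer probe set of the same gene differed by 0.20. Ppn, which encodes the matrix protein papilin, had 7.66, 8.09 and 8.21 in Tis11 kd arrays, against 7.12, 7.47 and 6.94 in GFP kd arrays, a difference of 0.81 (SE 0.19) without overlap. flz, which encodes a serine protease, had 6.65, 6.37 and 7.05 in Tis11 kd arrays, against 6.16, 6.25 and 5.25 in GFP kd arrays. The difference was 0.80 (SE 0.30), and GFP kd replicate 3 is again the lowest array.

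Other genes with a higher mean after Tis11 kd had overlapping groups and a shared order of the arrays. CG2444 had 7.17, 9.40 and 8.48 in Tis11 kd arrays, against 8.35, 7.01 and 5.70 in GFP kd arrays, a difference of 1.33 (SE 0.77). Swim, which encodes a secreted partner of the signalling protein Wingless, had 7.61, 9.42 and 9.09 in Tis11 kd arrays, against 8.81, 7.64 and 6.08 in GFP kd arrays, a difference of 1.20 (SE 0.74). CG4829 had 7.78, 9.53 and 8.95 in Tis11 kd arrays, against 8.77, 8.09 and 6.62 in GFP kd arrays, a difference of 0.93 (SE 0.63). In each of the 3 genes the groups overlap, with the highest signals in Tis11 kd replicate 2 and GFP kd replicate 1 and the lowest in Tis11 kd replicate 1 and GFP kd replicate 3, the arrays at the ends of the leading axis. In each of these 3 genes, every Tis11 kd array lay above the GFP kd array most like it over all probe sets. The part of the leading axis in the differences was not tested. Of the 18 genes named for a higher signal, 10 had groups that do not overlap, as did 2.85% of all genes with a higher signal. The 18 were picked by size or p on these same arrays, which favours separated groups, so the count is no separate support. Of the 8 that overlap, 7 were highest in Tis11 kd replicate 2 and GFP kd replicate 1, among them CG6912 (0.77, SE 0.65), CG3984 (0.77, SE 0.79) and CG10764 (0.83, SE 0.57). The exception was vir-1, a gene induced by virus infection through JAK-STAT signalling. It had 9.80, 8.88 and 9.48 in Tis11 kd arrays, against 8.08, 8.29 and 9.02 in GFP kd arrays, a difference of 0.92 (SE 0.31), and only Tis11 kd replicate 2 and GFP kd replicate 3 cross.

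**Figure D3:**
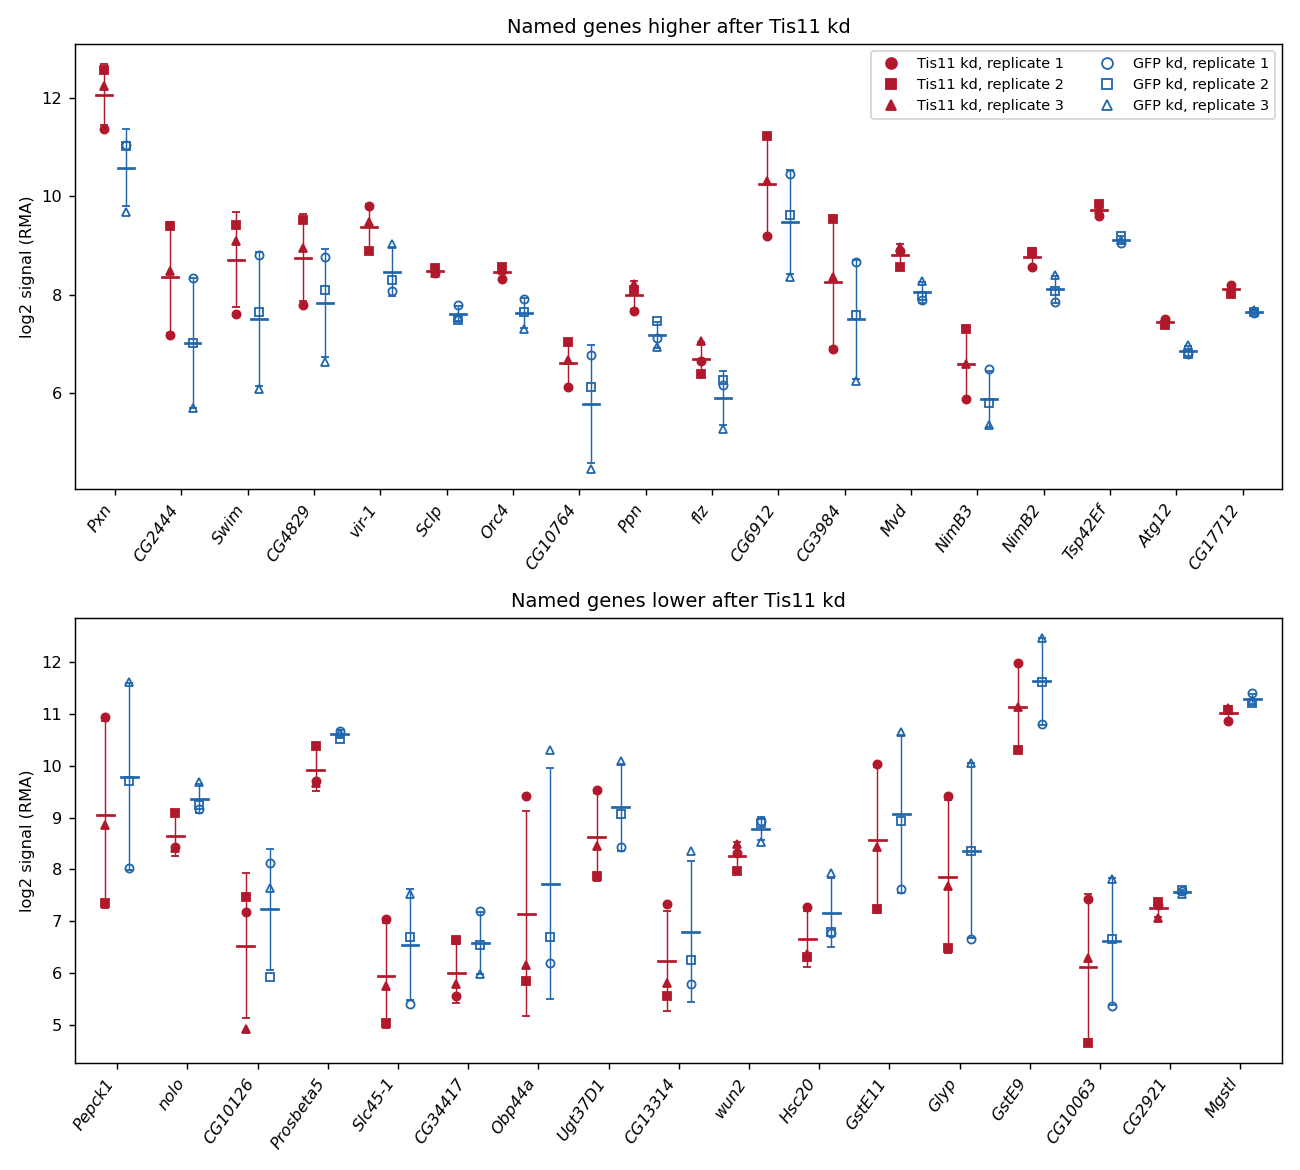
Log2 signal (y axis) of the 18 genes named for a higher and the 17 named for a lower signal (x axis), Tis11 kd filled and left, GFP kd open and right of it; symbols mark the replicate, the long bar is the group mean and the error bar 1 SD over 3 arrays. The groups do not overlap in 10 of the upper and 5 of the lower genes, and in most of the others Tis11 kd replicate 1 and GFP kd replicate 3 lie at one end. The genes were picked by size or p on these same arrays.

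On all 6 arrays, fewer probe sets were under −0.5 than over 0.5, 20 against 56. The order turned without Tis11 kd replicate 1 (260 against 153) and without GFP kd replicate 1 (196 against 181), and array weights gave 53 against 57. The lowest difference of all belonged to probe set 1623863_a_at, which has no gene in the annotation and was named after its values were seen. It had 7.28, 8.50 and 8.03 in Tis11 kd arrays, against 9.98, 10.09 and 9.71 in GFP kd arrays, a difference of −1.99 (SE 0.296) without overlap. With LPS it differed by −2.37 (SE 0.41), again without overlap. Among annotated genes, nolo, which encodes an ADAMTS-like matrix protein, had 8.44, 9.08 and 8.41 in Tis11 kd arrays, against 9.17, 9.24 and 9.69 in GFP kd arrays, a difference of −0.72 (SE 0.22). The groups do not overlap, though Tis11 kd replicate 2 comes close to the lowest GFP kd array. The other nolo probe sets differed by −0.79 and −0.75, so all 3 ran the same way. Prosbeta5, a catalytic subunit of the 20S proteasome, had 9.71, 10.38 and 9.66 in Tis11 kd arrays, against 10.68, 10.52 and 10.62 in GFP kd arrays, a difference of −0.69 (SE 0.20). Here the GFP kd arrays are tight and the Tis11 kd arrays lie below them. wun2, which encodes a lipid phosphate phosphatase, had 8.31, 7.97 and 8.50 in Tis11 kd arrays, against 8.92, 8.90 and 8.53 in GFP kd arrays, a difference of −0.52 (SE 0.17) with Tis11 kd replicate 3 just under GFP kd replicate 3. CG2921 differed by −0.32 (SE 0.11) and the microsomal glutathione transferase gene Mgstl by −0.27 (SE 0.11), both without overlap.

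The remaining lower genes had overlapping groups and wide errors. Pepck1, the phosphoenolpyruvate carboxykinase of gluconeogenesis, had 10.95, 7.36 and 8.86 in Tis11 kd arrays, against 8.04, 9.71 and 11.62 in GFP kd arrays, a difference of −0.73 (SE 1.12). Obp44a, of the odorant-binding protein family, had 9.42, 5.85 and 6.17 in Tis11 kd arrays, against 6.19, 6.70 and 10.29 in GFP kd arrays, a difference of −0.58 (SE 1.31). In both genes each Tis11 kd array lay under the GFP kd array most like it over all probe sets, a matching that was not tested. Both were highest in Tis11 kd replicate 1 and GFP kd replicate 3 and spanned far more within a group than between the groups. The same held for 10 of the 12 overlapping genes named for a lower signal, including the sugar transporter gene Slc45-1 (−0.60, SE 0.65), Ugt37D1 (−0.58, SE 0.53), the glutathione S-transferase genes GstE11 (−0.50, SE 0.91) and GstE9 (−0.49, SE 0.52), and Glyp, which encodes glycogen phosphorylase (−0.50, SE 0.99). The exceptions were CG34417, with 5.56, 6.64 and 5.79 in Tis11 kd arrays, against 7.20, 6.55 and 5.99 in GFP kd arrays (−0.58, SE 0.37), and CG10126, in which Tis11 kd replicate 3 was at 4.93 and GFP kd replicate 2 at 5.92 and every other array above 7 (−0.70, SE 0.80).

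Gene lists that fit these cells are described by counts and medians, with each gene taken by its brightest probe set. Over 44 lists, 920 genes were measured and 0 passed. At an unadjusted limma p under 0.05, 17 were higher (1.85%, against 1.07% of all genes) and 2 lower (0.217%, against 0.192%). The groups did not overlap for 31 with a higher signal (3.37%, against 2.85% of all 11982 genes) and for 8 with a lower one (0.87%, against 1.63%). Of all genes, 50.5% lay above 0, 0.392% were over 0.5 and 0.117% under −0.5, and the median difference over genes was 0.001. The medians of 38 lists were within 0.1 of 0, and those of 29 lists took both signs when each array was left out in turn.

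The Nimrod genes and the plasmatocyte markers had the highest medians. Of the 12 Nimrod genes, which encode proteins with EGF-like repeats that bind bacteria and dead cells, 11 were above 0 (median 0.30). Of them, 3 were over 0.5, against 0.392% of all genes. The groups of NimB2 and NimC1 did not overlap, as was so with a higher signal for 2.85% of all genes. NimB2, a secreted member, had 8.56, 8.87 and 8.88 in Tis11 kd arrays, against 7.85, 8.08 and 8.40 in GFP kd arrays, a difference of 0.66 (SE 0.16). NimC1, a phagocytosis receptor of plasmatocytes, had 9.82, 10.09 and 10.04 in Tis11 kd arrays, against 9.18, 9.69 and 9.78 in GFP kd arrays, a difference of 0.43 (SE 0.17), with Tis11 kd replicate 1 just above GFP kd replicate 3. Both stand apart, whereas the groups overlap for NimB3 (0.72, SE 0.41), NimB1 (0.50, SE 0.25), the receptor gene eater (0.37, SE 0.40) and NimC4, the one member below 0 (−0.14, SE 0.10). The median of the list was 0.03 without GFP kd replicate 3 and 0.47 without Tis11 kd replicate 1.

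Of the 9 plasmatocyte markers, 8 were above 0 (median 0.28), with Pxn at 1.48, the scavenger receptor gene Sr-CI at 0.39 (SE 0.20) and the collagen IV gene Col4a1 at 0.26. Of the 9 markers, 6 (Pxn, NimC1, eater, Sr-CI, crq and Col4a1) stand in another list too. The secreted hemocyte protein gene Hml had 6.61, 7.92 and 6.84 in Tis11 kd arrays, against 8.18, 6.97 and 6.37 in GFP kd arrays, a difference of −0.05 (SE 0.51) with full overlap. The median signal of these markers was 10.18, 10.81 and 10.36 in Tis11 kd replicates 1, 2 and 3, against 10.70, 10.13 and 9.78 in GFP kd replicates 1, 2 and 3, so that the list as a whole overlaps between the groups and is highest in the arrays at one end of the leading axis. Of the 9 scavenger receptors and thioester proteins measured, 7 were above 0 (median 0.10), with Sr-CIII at 0.51 (SE 0.21). Lamellocyte markers (3 of 6 above 0, median −0.01) and crystal cell markers (1 of 5, median −0.10) lay near 0.

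The 21 basement membrane and matrix genes held both the highest and the lowest difference of any gene in the lists, Pxn and nolo, with 15 above 0 and a median of 0.12 (0.03 without Tis11 kd replicate 2 and 0.23 without Tis11 kd replicate 1). The groups did not overlap for LanB1, the laminin β chain gene, with 11.51, 11.52 and 11.52 in Tis11 kd arrays, against 11.13, 11.33 and 11.20 in GFP kd arrays (0.30, SE 0.09). They were also apart for the laminin α chain gene wb (0.42, SE 0.14) and, on the lower side, for the nidogen gene Ndg (−0.17, SE 0.08), whose signal was under 5. The other laminin chains, LanA and LanB2, were at −0.00 and −0.12, and the second collagen IV gene vkg at 0.12. Integrins and their adhesion partners were split, 8 above and 8 below 0, between −0.14 and 0.26.

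Among genes of DNA replication, 5 of 6 for origin recognition and licensing were above 0 (median 0.19, and 0.08 without GFP kd replicate 3 or 0.30 without GFP kd replicate 1). Besides Orc4, Orc1 had 7.43, 7.46 and 7.52 in Tis11 kd arrays, against 7.18, 7.37 and 7.23 in GFP kd arrays (0.21, SE 0.09), with no overlap. These are 2 of the 6, against 2.85% of all genes with separated, higher signals. Orc2 had 7.37, 7.91 and 7.58 in Tis11 kd arrays, against 7.62, 7.29 and 6.51 in GFP kd arrays (0.48, SE 0.29), with overlap and GFP kd replicate 3 far below the rest. Of the 21 genes of the replicative helicase and fork, 18 were above 0 (median 0.14), none over 0.5 and none without overlap, from −0.19 for the GINS subunit gene Psf3 to 0.26 for the helicase subunit gene Mcm5. Their median was −0.08 without GFP kd replicate 3 and 0.31 without GFP kd replicate 1. Cyclins, Cdks and mitotic regulators had a median of 0.04 (11 of 17 above 0), with CycE at 0.36 (SE 0.18).

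**Figure D4:**
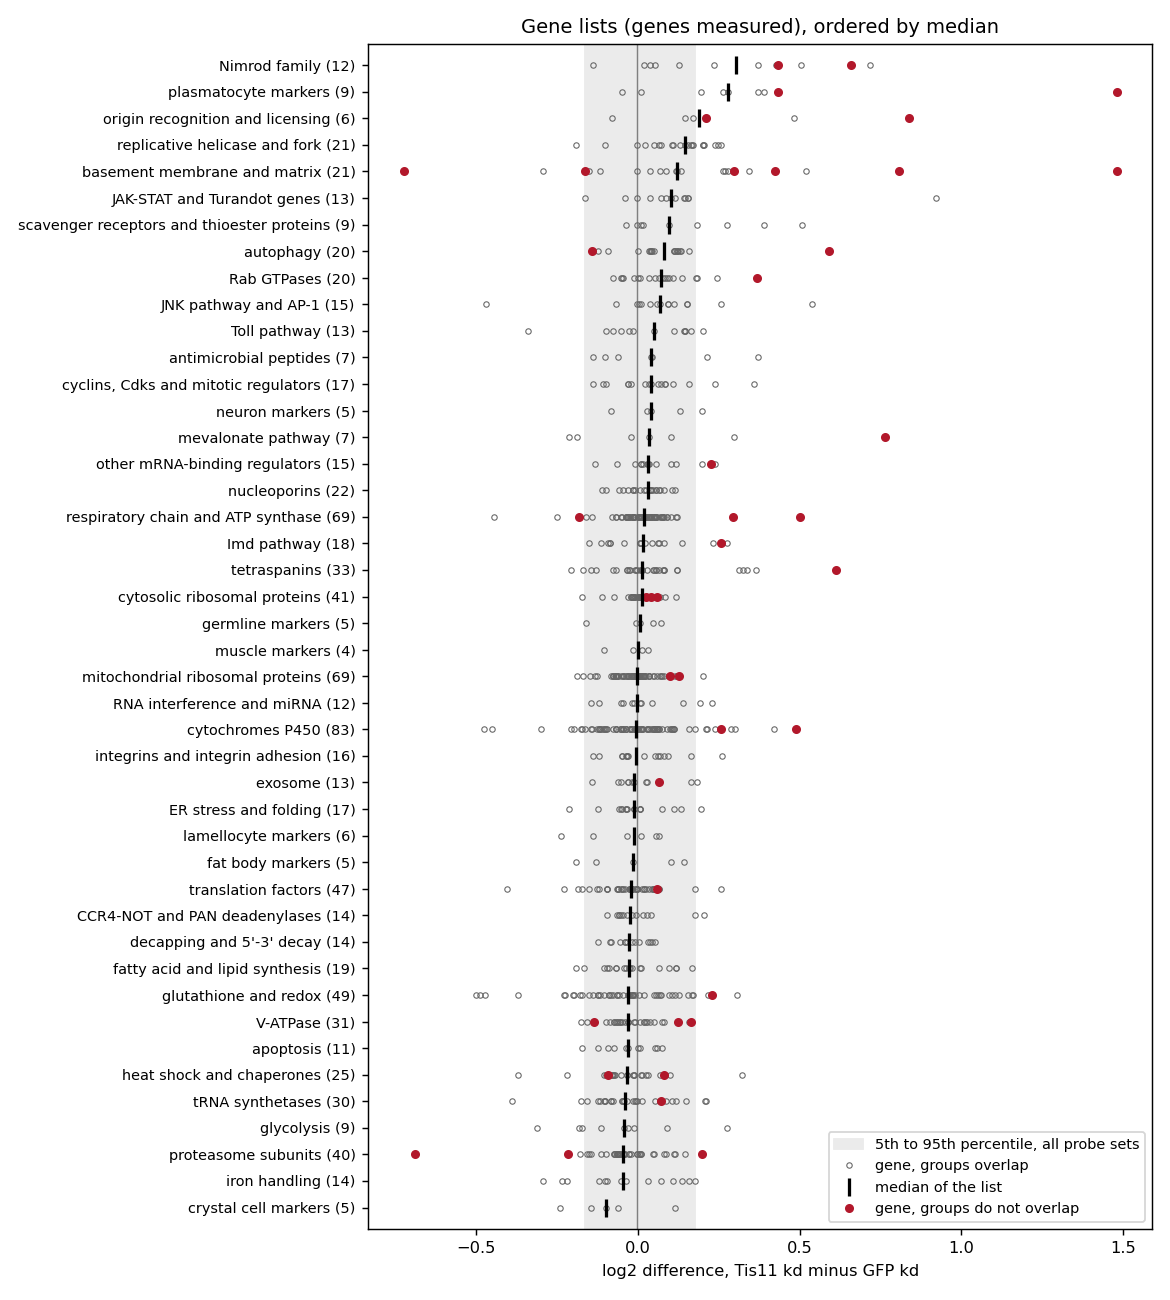
Log2 difference, Tis11 kd minus GFP kd (x axis), of each gene in the 44 lists (rows, with the number of genes measured), ordered by the list median. Filled points are genes whose groups do not overlap, open points those that overlap, upright bars the list medians and the grey band the 5th to 95th percentile of all probe sets, −0.16 to 0.18; the list medians run from 0.30 for the Nimrod genes to −0.10 for crystal cell markers.

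Lists of mRNA turnover genes had medians near 0. Of 14 deadenylase genes (CCR4-NOT and PAN), 5 were above 0 (median −0.03, range −0.10 to 0.21), and for 12 of them the unadjusted 95% interval of the difference lay within 0.5 of 0. The catalytic deadenylase genes twin and Pop2 differed by 0.02 (SE 0.11) and −0.01 (SE 0.11). Decapping and 5′ to 3′ decay genes had a median of −0.03 (5 of 14 above 0), with 12 intervals within 0.5, and DCP2, the decapping enzyme gene, at −0.01 (SE 0.17). The exosome list had a median of −0.01 (6 of 13 above 0), with 11 intervals within 0.5. That of RNA interference was −0.00 (6 of 12), but only 4 intervals lay within 0.5 and the other 8 reached past it. Of 15 other mRNA-binding regulators 12 were above 0 (median 0.03), with smg, which encodes a translational repressor, at 0.23 (SE 0.12) and no overlap.

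Immune lists without LPS also lay near 0. Imd pathway genes had a median of 0.02 (12 of 18 above 0) and Toll pathway genes 0.05 (7 of 13). Only 2 of the 7 antimicrobial peptide genes measured had a mean of at least 6, and the list median was 0.04. CecA1, the Tis11 target named above, is not among the 7, and the study states that this array does not represent it. CecB had 7.00, 8.48 and 7.59 in Tis11 kd arrays, against 8.47, 7.18 and 6.31 in GFP kd arrays, a difference of 0.37 (SE 0.58) in the array order described for CG2444. Of 15 JNK pathway genes 12 were above 0 (median 0.07). egr, the gene of the tumour necrosis factor homolog Eiger, had 11.10, 10.56 and 10.95 in Tis11 kd arrays, against 10.02, 10.22 and 10.76 in GFP kd arrays, a difference of 0.54 (SE 0.22), and its other probe set differed by 0.51. Only Tis11 kd replicate 2 lies under a GFP kd array, replicate 3. The genes of its receptors, grnd and wgn, were at 0.00 and 0.26. JAK-STAT and Turandot genes had a median of 0.10 (10 of 13 above 0), and all except vir-1 lay between −0.16 and 0.16.

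In the remaining lists, single genes lay apart from list medians near 0. Of 20 autophagy genes 17 were above 0 (median 0.08), and the highest after Atg12 was at 0.16. Of 40 proteasome genes 28 were below 0 (median −0.04), 36 had an interval within 0.5, and only Prosbeta5 was past −0.5. Rab18 was the one member without overlap in the list of 20 Rab genes, which holds 17 Rabs and 3 regulators of Rab3, with 9.89, 9.84 and 9.83 in Tis11 kd arrays, against 9.49, 9.43 and 9.53 in GFP kd arrays (0.37, SE 0.08). Of 69 respiratory chain and ATP synthase genes, ATPsyndelta had 10.82, 11.30 and 10.99 in Tis11 kd arrays, against 10.76, 10.54 and 10.30 in GFP kd arrays (0.50, SE 0.17), and SdhD was at 0.29 (SE 0.11), both without overlap, while the list median was 0.02. ATPsynGL of the respiratory list and Atg8b of the autophagy list were separated with a lower signal. Of all genes, 2.85% had separated, higher signals and 1.63% separated, lower ones. The 2 higher of the 69 respiratory genes are close to the share of all genes. Cytosolic ribosomal protein genes had a median of 0.01, with 38 of 41 intervals within 0.5.

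The arrays with LPS give the same kd on other arrays, and limma called 0 of 18769 probe sets there (355 with a higher and 133 with a lower signal had an unadjusted p under 0.05). Whether the cultures were shared with those without LPS is not stated. Deviations from the group means correlated between the 2 sets of arrays from −0.685 to 0.822, the latter for GFP kd replicate 3 with its LPS namesake. All other same-numbered pairs lay between −0.545 (Tis11 kd replicate 2) and 0.0706 (GFP kd replicate 1). Obp44a was high in Tis11 kd replicate 1 (9.42) and GFP kd replicate 3 (10.29) without LPS. With LPS it was high in Tis11 kd replicate 2 (9.06) and GFP kd replicate 3 (9.75), and at most 6.48 in the others. The shares below may thus hold spread between repeats in common, and its part was not tested. Of the 56 probe sets over 0.5 without LPS, 50 were above 0 with LPS (89.3%, against 55.3% of all probe sets), 13 were over 0.5 (0.0959% of all), and their median was 0.27. All 27 with groups that do not overlap were above 0, and so were 23 of the 29 that overlap. Of the 20 under −0.5, 19 were below 0 with LPS (95%, against 44.7% of all), 11 were under −0.5 (0.517% of all), and their median was −0.58. All 5 with groups that do not overlap were below 0, and so were 14 of the 15 that overlap. Of the 485 probe sets with separated, higher Tis11 kd values, whatever the size of the difference, 68.5% were above 0 with LPS, and of the 354 with separated, lower values 31.9% were below 0.

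Tsp42Ef had 9.84, 9.69 and 9.39 in Tis11 kd arrays with LPS, against 9.32, 8.97 and 9.30 in GFP kd arrays with LPS, a difference of 0.44 (SE 0.16). Mvd had 8.93, 8.72 and 8.58 in Tis11 kd arrays with LPS, against 8.27, 7.72 and 8.50 in GFP kd arrays with LPS, a difference of 0.58 (SE 0.22). nolo had 8.51, 7.76 and 8.90 in Tis11 kd arrays with LPS, against 9.31, 9.03 and 9.46 in GFP kd arrays with LPS, a difference of −0.88 (SE 0.29). In all 3 genes the groups stay apart with LPS, as 7.77% of all probe sets do with higher and 1.97% with lower Tis11 kd values. They also do for CG17712 (0.25, SE 0.11). For vir-1, whose groups overlap without LPS, they were apart with LPS (0.76, SE 0.27). The groups overlap with LPS for Pxn (1.10, SE 0.74), Sclp (0.51, SE 0.33), Orc4 (0.50, SE 0.26) and Atg12 (0.41, SE 0.21). The test of the difference between the kd effects, an interaction in limma over all 12 arrays, called 0 of 18769 probe sets (0%), with 373 at an unadjusted p under 0.05 and none of these among the 76 past 0.5 in size. CG10764 was the one of the 18 higher named genes below 0 with LPS (−0.19), and all 17 lower named genes were below 0. Of all genes, 48.9% were above 0 with LPS. The list medians with LPS were 0.09 for the Nimrod genes (10 of 12 above 0), 0.07 for plasmatocyte markers (6 of 9), −0.06 for origin recognition (2 of 6) and −0.01 for helicase and fork genes (8 of 21). They were −0.04 for autophagy (7 of 20), −0.04 for JNK pathway (3 of 15) and −0.06 for Imd pathway genes (2 of 18). Other mRNA-binding regulators were at −0.095 (3 of 15) and JAK-STAT and Turandot genes at −0.01 (5 of 13). Most members of these lists were above 0 without LPS. Respiratory chain and ATP synthase genes went the other way, at 0.09 (60 of 69).

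**Figure D5:**
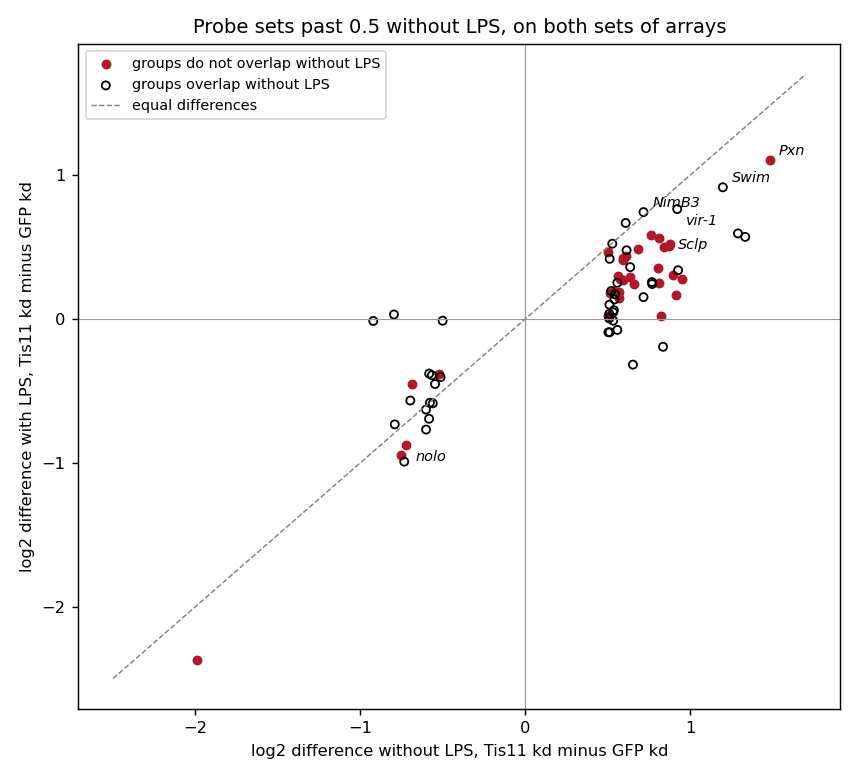
Log2 difference, Tis11 kd minus GFP kd, on the 6 arrays with LPS (y axis) against the 6 arrays without LPS (x axis) for the 76 probe sets past 0.5 in size without LPS; filled points had groups that do not overlap without LPS, and the dashed line marks equal differences. On the right 50 of 56 points lie above 0 with LPS, most of them under the dashed line, and on the left 19 of 20 lie below 0, the farthest being the unannotated probe set at −1.99 without LPS and −2.37 with LPS.

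The number of arrays and the spread between repeats, which includes the leading axis, limit the precision. The unadjusted 95% interval of a difference had a median half-width of 0.29, and it was under 0.5 for 87.1% of all probe sets and for 74.7% of those with a mean of at least 6. The whole interval lay beyond 0.5 in size for 4 probe sets, those of Sclp (0.61 to 1.13), CG5397 (0.58 to 1.32) and RapGAP1 (0.52 to 1.09), and 1 with no gene in the annotation. CG5397 had 6.09, 5.81 and 5.74 in Tis11 kd arrays, against 4.91, 4.70 and 5.19 in GFP kd arrays, and RapGAP1, which encodes a GTPase-activating protein for Rap1, had 4.76, 4.42 and 4.52 in Tis11 kd arrays, against 3.77, 3.85 and 3.64 in GFP kd arrays. These values of both genes are at the dim end of the array, where RMA values are compressed, and the genes were named after their values were seen. For RapGAP1 they come from a probe set that is not the brightest of the gene. The brightest differed by no more than 0.5 in size.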

How the data were processed

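The authors extracted total RNA, hybridized biotin-labelled samples to Affymetrix Drosophila Genome 2.0 arrays and summarized the probes by RMA in RMAExpress, which corrects background, quantile-normalizes the arrays and gives 1 value per probe set. The deposited table holds these log2 values for 12 arrays. Whether all 12 were normalized together is not stated. RMA compresses differences at dim probe sets. Arrays have no read depth, and their number and the spread between repeats limit the precision.

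The values were used as deposited. Genes were named from the platform annotation, and 13544 of the 13647 probe sets with 1 gene matched RefSeq by gene identifier. Where a gene had several probe sets, the brightest stood for it. Tis11 kd and GFP kd arrays without LPS were compared with limma 3.58.1 (lmFit and eBayes) in R 4.3.3, with Benjamini-Hochberg adjustment over 18769 probe sets and a threshold of 0.05. The same fit was run on the arrays with LPS, and the interaction on all 12. The size of 0.5 is the one the study uses for Tis11-sensitive mRNAs. Rank products, which the methods also name, were not run here.

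The genes named are the 15 highest and 15 lowest differences among genes with a mean of at least 6 in 1 group, the 5 smallest p in each direction, and up to 3 of the highest and 2 of the lowest members of each list. Others are named as exceptions. The 44 lists (1125 entries) were written as gene symbols or as a pattern that RefSeq symbols had to match. The members, lists and rules were chosen with earlier results of these data known. The limma fit was tested on simulated data. Alternatives were a block for the replicate number, 1 fit of all 12 arrays, a filter at a mean of 6, median centring, quantile normalization again, an intensity trend, array weights, the methods' t-test, 1 probe set per gene, and leaving out each array. Python 3.11.15 with matplotlib 3.10.9 drew the figures. Sequences and coordinates were not used here.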

Additional observations from a re-analysis of the deposited data

How the results depend on the processing

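Every alternative gave 0 probe sets higher and 0 lower at an adjusted p under 0.05, the smallest adjusted p being 0.0854 with array weights. At an unadjusted limma p under 0.05, the filter gave 91 higher and 6 lower, array weights 608 and 309, and an intensity trend 140 and 65. Array weights gave most weight to Tis11 kd replicate 3 (3.42) and GFP kd replicate 2 (3.06). The number over 0.5 was 47 to 64 under filtering, scaling, weights or 1 probe set per gene, and 55 to 181 when 1 array was left out (153, 134 and 55 without Tis11 kd replicates 1, 2 and 3, against 181, 104 and 142 without GFP kd replicates 1, 2 and 3). The number under −0.5 was 53 with array weights, and 19 to 260 when 1 array was left out (260, 51 and 19 without Tis11 kd replicates 1, 2 and 3, against 196, 88 and 61 without GFP kd replicates 1, 2 and 3). The cause was not tested.

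The labels number the repeats 1 to 3 in each group, but same-numbered arrays did not deviate together: the correlations of their deviations from the group means were −0.751, −0.0455 and −0.325, so the numbers were not taken as pairs. With the replicate number as a block, limma called 0 higher and 0 lower, with 76 and 16 at an unadjusted p under 0.05. The block also called 0 with LPS and 0 in the interaction. Among the 6 arrays without LPS, no array correlated best with its own number in the other group. The deviations of Tis11 kd replicates 1, 2 and 3 correlated at 0.835, 0.855 and 0.617 with those of GFP kd replicates 3, 1 and 2. No label pairs the arrays that way, so a block of these pairs was not fitted and its result is not known.

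Of the 35 genes named for size or p, 28 kept their direction under every alternative and 7 changed it when 1 array was left out. Their ranges then were −1.68 to 0.18 for Pepck1, −1.72 to 0.70 for Obp44a, −1.35 to 0.35 for Glyp, −1.23 to 0.29 for GstE11, −1.14 to 0.25 for CG10063, −1.11 to 0.21 for CG13314 and −1.35 to 0.10 for CG10126. Of 438 list medians recomputed, 431 moved by less than the spread between repeats and 7, in 4 lists, by more. Leaving out 1 array of so small a group can hardly move a median by more than that spread. The count of 431 is therefore no test of stability. The medians of 29 of the 44 lists took both signs when each array was left out in turn.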

Other observations

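A probe set with no gene in the annotation had one of the tightest differences and was picked after its values were seen. Probe set 1627090_at had 8.57, 8.51 and 8.50 in Tis11 kd arrays, against 7.96, 7.89 and 7.83 in GFP kd arrays, a difference of 0.63 (SE 0.085) with little spread in either group. Its adjusted limma p was 1.00.

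Among lists of membrane and detoxification genes, most members were near 0. Of 33 tetraspanin genes 20 were above 0 (median 0.01), and Tsp42Ef was the one without overlap. Separated, higher signals were found for 2.85% of all genes. Of 81 cytochrome P450 genes 38 were above 0 (median −0.01), leaving out the cyclophilin genes Cyp1 and Cyp40, which the list also holds. Cyp6d5 had 7.69, 7.45 and 7.57 in Tis11 kd arrays, against 6.94, 7.01 and 7.29 in GFP kd arrays, a difference of 0.49 (SE 0.12), and 0.05 with LPS. Of 49 glutathione and redox genes 17 were above 0 (median −0.03). The V-ATPase genes, which encode the proton pump of lysosomes, had a median of −0.03 (12 of 31 above 0), with 26 intervals within 0.5. tRNA synthetase genes (10 of 30 above 0, median −0.04), translation factor genes (14 of 47, median −0.02) and chaperone genes (9 of 25, median −0.03) lay slightly below 0, and their LPS medians were −0.13, −0.04 and −0.09. Leaving out 1 array at a time turned the sign of each median without LPS, with −0.15 to 0.05 for tRNA synthetase, −0.11 to 0.02 for translation factor and −0.10 to 0.05 for chaperone genes.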
